A study of Mus musculus with 12 samples.

Results

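The response of tolerogenic dendritic cells to lipopolysaccharide was taken from 6 of the 12 RNA-seq libraries of the series, 3 of TolDC with LPS and 3 of TolDC without it. All 12 libraries came from dendritic cells of C57BL6 mouse bone marrow, genotype WT, enriched for live CD11c+ cells and collected on day 7. TolDC were made with vitamin D3 and IL-10, and the TolDC + LPS group received LPS in addition. The other 6 libraries, 3 of untreated BMDC and 3 of BMDC + LPS, serve here only for tests of whether the TolDC response differed from theirs. The series concerns tolerogenic dendritic cells and acute kidney injury. The sources used here do not give the doses of LPS, vitamin D3 and IL-10 or the length of stimulation. The labels number the samples of each group from 1 to 3 and do not say whether a number stands for a culture or an animal of its own. The p-values therefore rest on sample-to-sample spread alone, and that spread may be technical. All 13141 genes with enough reads were tested.

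LPS, a cell wall component of Gram-negative bacteria, is sensed by Toll-like receptor 4 with CD14 and MD-2. The receptor signals through MyD88 to NF-kB and MAP kinases, which switch on cytokines and chemokines, and through TRIF to IRF3 and type I interferon. In dendritic cells this program is called maturation: the cells leave the cycle, raise MHC and co-stimulatory molecules, change their chemokine receptors and shift from respiration to glycolysis. Vitamin D3, acting through the vitamin D receptor, and IL-10, acting through STAT3, are both known to restrain maturation, and cells made with them are used to induce tolerance in T cells.

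LPS changed the transcript level of most genes in TolDC. edgeR's quasi-likelihood test, with Benjamini-Hochberg adjustment over all 13141 genes and an adjusted p under 0.05 as the threshold, called 4651 genes higher (35.4%) and 4719 lower (35.9%) with LPS, and 3771 were not called. From 8-fold upward, rises outnumbered falls. At least 2-fold changes were 1267 rises (9.64%) and 1396 falls (10.6%), at least 4-fold 508 and 529, at least 8-fold 264 and 181, at least 16-fold 152 and 43, and at least 64-fold 42 and 2. In 9933 of the 13141 genes tested, the 3 LPS samples lay wholly above or below the 3 samples without LPS. Groups without overlap were thus the rule over all genes, and do not set a gene apart. Throughout, 3 values given together are replicates 1, 2 and 3 in that order, in CPM, the count of a gene relative to its scaled library size. Log2 changes are TolDC + LPS minus TolDC, followed by their standard error (SE), with 3 samples per group. The median log2 change over all genes tested was 0.00. The shares over all genes, 35.4% higher and 35.9% lower, are the background for the list counts below. A list near these shares moved as genes in general did.

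The libraries held 23699310 to 41764975 reads assigned to genes in the TolDC groups and 21844405 to 30007479 in the BMDC groups. Dendritic cell markers added up to 10053, 9594 and 9689 CPM without LPS and 13381, 11407 and 12143 CPM with it. Cd74 made up much of that rise, at 4244, 4152 and 4249.8 and then 7498, 6222 and 6740.4 CPM. Of the 13 markers, 6 rose, 5 fell and 2 were not called, with a median log2 change of −0.03. Of these 13 markers, Itgax, which encodes CD11c, stood at 2235, 2024 and 2013 and then 1501, 1292 and 1342 CPM, Zbtb46 at 18.6, 17.4 and 14.5 and then 18, 14.7 and 16.6 CPM, and Flt3 was at most 0.317 CPM in every sample. The 6 B cell markers added up to at most 3.36 CPM, the 8 T cell markers to at most 16.8 CPM and the 8 stromal and endothelial markers to at most 6.12 CPM, with Col1a2, Lum and Cxcl12 at 0 counts in all 6 samples and Siglech, of plasmacytoid cells, also at 0. Monocyte and macrophage markers, 11 in all, added up to 2137, 2191 and 2178 CPM without LPS and 2142, 2838 and 2659 CPM with it. That sum joined 5 rises and 5 falls, with 1 marker not called and a median of −0.04. Adgre1 rose from 123, 125 and 127 to 457, 634 and 589 CPM, while Mertk and Ccr2 fell. Summed granulocyte markers were lower in the samples numbered 1, and so were those of T cells and NK cells. The T cell sums were 3.69, 11.9 and 10.4 CPM without LPS and 6.76, 16.8 and 14.6 CPM with it. Those of 6 NK cell markers were 9.99, 30.6 and 32.4 and then 13.3, 38.9 and 31.4 CPM. Not every granulocyte marker took part, and Kit stood at 23.6, 21.3 and 22.1 and then 22.7, 24.4 and 23.9 CPM. The 11 neutrophil markers added up to 587, 1114 and 1101 CPM without LPS and 825, 1188 and 1103 CPM with it, the 10 mast cell and basophil markers to 77.6, 277 and 277 and 202, 424 and 372 CPM, and the 7 eosinophil markers to 89.2, 225 and 227 and 40.5, 142 and 118 CPM. Single genes carried much of these sums. Hdc, histidine decarboxylase, went from 4.44, 12.7 and 12.1 to 129, 159 and 149 CPM and was the 1 called of 9 tested mast cell and basophil markers, whose median log2 change was −0.07. Siglecf, at 60.1, 60.7 and 61.2 and then 5.55, 6.15 and 6.09 CPM, was the 1 called of 6 tested eosinophil markers. Among neutrophil markers, Mmp8 made up 454, 463 and 463 and then 568, 573 and 578 CPM, and Csf3r went from 10.1, 23.9 and 25.1 to 90.3, 119.9 and 112 CPM. The other 9 neutrophil markers were not called, S100a8 among them at 66.5, 313 and 304 and then 88.4, 228 and 193 CPM, and the list's median was −0.42. The first principal component of the 6 libraries held 89.1% of the variance and separated the groups, and the second held 5.16% and separated the 2 samples numbered 1 from the other 4. In bulk RNA, a change in the number of cells of a type and a change in RNA per cell cannot be told apart.

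**Figure D1:**
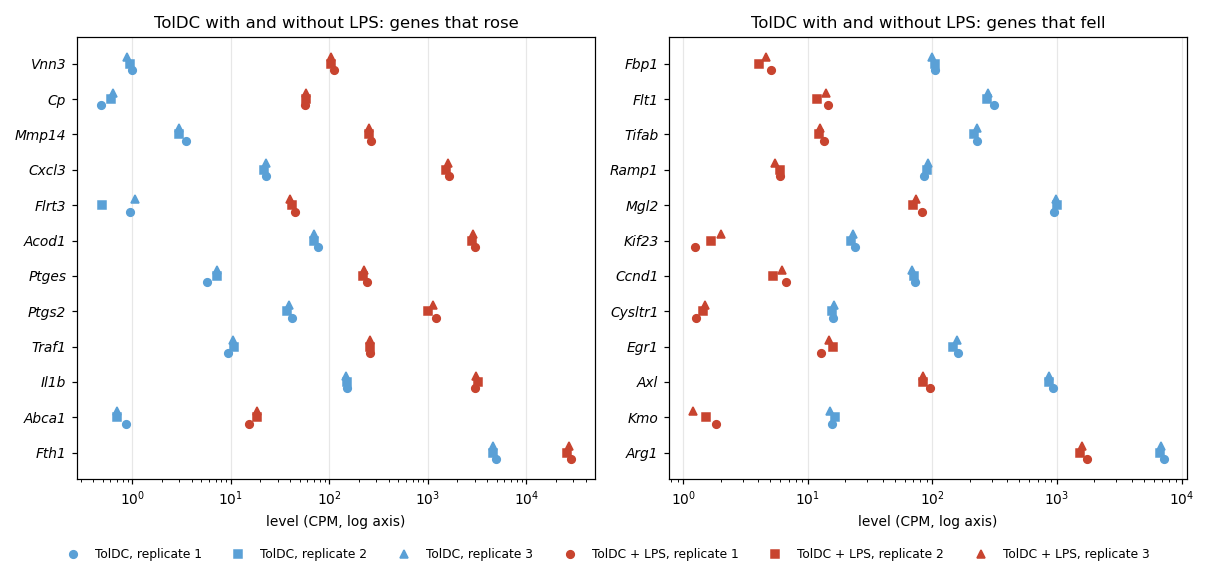
Expression in each of the 6 TolDC libraries, in CPM on a log10 axis, for genes described in the text; blue markers are TolDC, red markers TolDC + LPS, and marker shape gives the replicate. In the 12 genes on the left all 3 LPS samples lie above the others, and in the 12 on the right all 3 lie below.

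The promoters of Cxcl1, Cxcl2 and Cxcl3, CXC chemokines that attract neutrophils, share a short sequence. The 250 bases before the RefSeq start of Cxcl1, Cxcl2 and Cxcl3, which lie in 1 cluster on chromosome 5 of GRCm38.p6, are shown because all 3 genes rose more than 64-fold. They span chr5:90890995-90891244 for Cxcl1, chr5:90903649-90903898 for Cxcl2 and chr5:90785851-90786100 for Cxcl3, all on the plus strand. Capitals mark the match to the kappaB consensus, the binding motif of NF-kB. The capitals hold 2 overlapping matches offset by 1 base, 1 on each strand.
Cxcl1: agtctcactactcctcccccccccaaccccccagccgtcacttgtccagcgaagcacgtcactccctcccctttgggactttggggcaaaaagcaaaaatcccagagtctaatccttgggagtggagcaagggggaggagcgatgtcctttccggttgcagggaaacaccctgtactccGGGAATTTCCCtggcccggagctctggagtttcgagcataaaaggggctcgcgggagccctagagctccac
Cxcl2: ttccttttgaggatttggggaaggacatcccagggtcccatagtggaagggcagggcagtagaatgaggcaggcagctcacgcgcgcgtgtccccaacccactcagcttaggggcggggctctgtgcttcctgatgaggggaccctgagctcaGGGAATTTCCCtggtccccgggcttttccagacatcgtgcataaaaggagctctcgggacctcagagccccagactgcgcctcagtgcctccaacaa
Cxcl3: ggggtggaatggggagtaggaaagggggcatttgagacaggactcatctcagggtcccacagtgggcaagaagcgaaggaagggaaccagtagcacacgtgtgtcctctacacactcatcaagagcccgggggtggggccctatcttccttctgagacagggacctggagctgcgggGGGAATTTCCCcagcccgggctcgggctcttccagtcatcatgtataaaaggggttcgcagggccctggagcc
The 11 bases GGGAATTTCCC stand in all 3 promoters, with the first base at −71 in Cxcl1, −97 in Cxcl2 and −73 in Cxcl3. A kappaB match was present in 7.01% of the 27025 mouse promoters of the table, in 8.67% of the 10205 belonging to tested genes, in 15.9% of the 378 belonging to genes that rose at least 4-fold, and in 7.81% of the 397 belonging to genes that fell at least 4-fold. A match is a description of the sequence and was not tested as a site.

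The CXC and CX3C chemokines, which direct neutrophils, T cells and monocytes, rose as a list: 8 of 10 tested rose, 1 fell and 1 was not called, with a median log2 change of 5.39. Cxcl3 (chr5:90786103-90789600, plus strand) rose from 22.6, 21.6 and 22.8 to 1641, 1541 and 1620.3 CPM. The 3 samples of each group lay close together, and the lowest LPS sample was 67.6 times the highest of the others. Its log2 change was 6.16 ± 0.05 (edgeR adjusted p = 1.18e-23). Cxcl10, the interferon-induced attractant of activated T cells, changed by 6.19 ± 0.52 (edgeR adjusted p = 2.2e-06). The fall was that of Cx3cl1, fractalkine, a membrane-bound ligand for monocytes, which went from 6.27, 4.98 and 5.43 to 2.02, 2.59 and 2.55 CPM. The groups did not overlap, and the log2 change was −1.21 ± 0.12 (edgeR adjusted p = 2.65e-08).

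CC chemokines were divided. Of 14 tested, 8 rose, 3 fell and 3 were not called, with a median of 0.61. Ccl5, also known as RANTES, which attracts T cells and monocytes, rose from 6.86, 9.43 and 9.37 to 1458, 1274 and 1350.5 CPM (log2 change 7.31 ± 0.16). The CCR4 ligands Ccl22 and Ccl17, which attract regulatory and type 2 helper T cells, were expressed without LPS and rose further. Ccl22 went from 792, 762 and 795 to 2719, 2419 and 2513 CPM and Ccl17 from 780.4, 718 and 733 to 1503, 1262 and 1326 CPM. Neither gene's groups overlapped, and their log2 changes were 1.70 ± 0.05 and 0.87 ± 0.08. Ccl24, an attractant of eosinophils that marks alternatively activated macrophages, fell from 479, 479.8 and 457 to 251, 227 and 231 CPM, and Ccl6 fell by 0.66 ± 0.04 on the log2 scale. Both falls separated all 3 samples of each group.

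The IL-1 family was led by its agonists. Of 15 ligands and receptors tested, 10 rose, 2 fell (4 with a replicate block) and 3 were not called, with a median of 0.54. Il1b (chr2:129364570-129371139, minus strand), the main secreted pyrogen of the family, rose from 153, 150.0 and 148 to 2979, 3201 and 3111 CPM. Il1a, released by dying cells and also membrane-bound, rose from 169.7, 155 and 159.9 to 2702, 2783 and 2754 CPM. The nearest samples of the groups were 19.5-fold and 15.9-fold apart, and the log2 changes were 4.36 ± 0.05 and 4.09 ± 0.04. The decoy receptor Il1r2, which binds IL-1 without signalling, was among the falls, with a log2 change of −2.46 ± 0.53.

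Among 17 cytokines of the IL-12, IL-6 and IL-10 families and haematopoietic growth factors, 13 rose, 2 fell (1 without TolDC replicate 2 or with counts without regard to strand) and 2 were not called, with a median of 1.87. Il12a, the p35 chain shared by IL-12 and IL-35, rose from 0.873, 0.939 and 0.951 to 28, 35.6 and 35.4 CPM. The samples without LPS were all under 1 CPM, and the log2 change was 5.16 ± 0.16 (edgeR adjusted p = 2.13e-13). TNF superfamily ligands were mixed, with 6 of 15 rising, 4 falling, 5 not called and a median of −0.13. Tnfsf9, the ligand of the T cell co-stimulator 4-1BB, rose from 5.12, 5.06 and 4.83 to 14.3, 11.5 and 13 CPM without overlap.

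**Figure D2:**
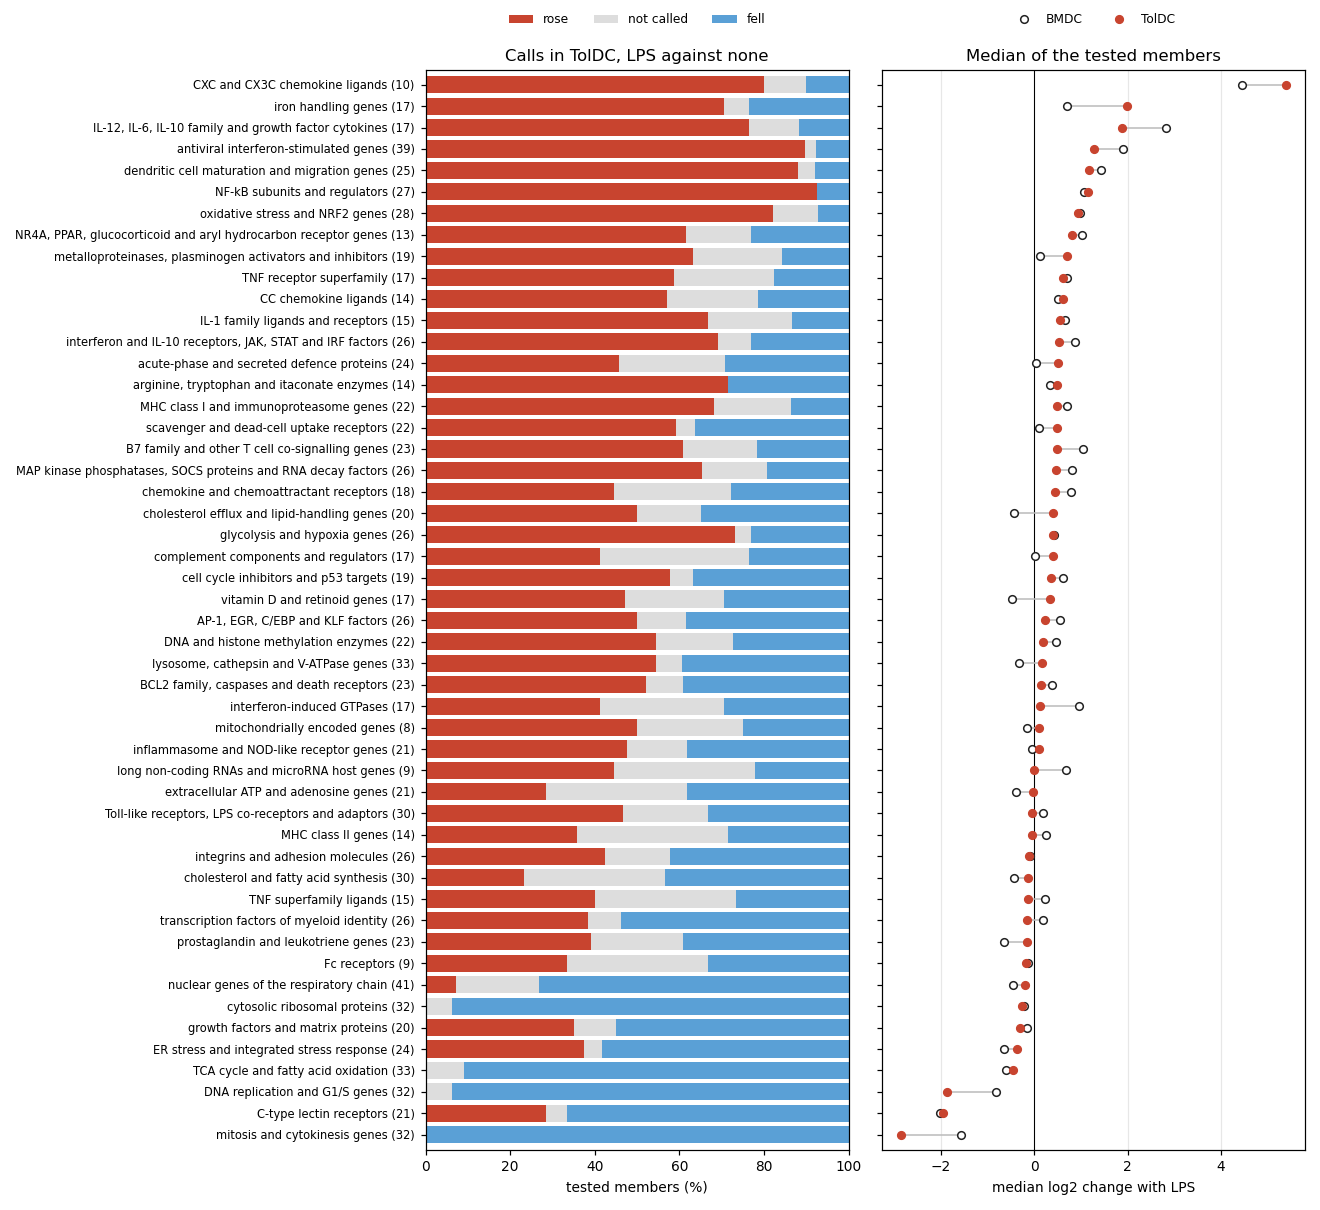
Left, the percentage of each list's tested members (number in brackets) that rose, fell or were not called with LPS in TolDC; right, the median log2 change of the list in TolDC (filled) and BMDC (open). The CXC chemokines have the highest TolDC median, 5.39, and the mitosis genes the lowest, −2.85.

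Acute-phase and antimicrobial proteins included 11 of 24 that rose, 7 that fell and 6 not called, with a median of 0.51. Lcn2, which withholds iron from bacteria by binding their siderophores, rose from 22.6, 73.6 and 71 to 2322, 2953 and 2828 CPM. All LPS samples were far above the rest, and replicate 1 was the lowest of each group. Its log2 change was 5.60 ± 0.63 (edgeR adjusted p = 4.14e-05), and 5.32 without the 4 samples numbered 1. Hp, haptoglobin, which binds free haemoglobin, rose from 9.4, 13.5 and 14 to 449, 588 and 553 CPM (log2 change 5.43 ± 0.42, and 5.37 without those samples). Lcn2 and Hp are also made by neutrophils, whose markers were lower in the same replicate, and the part of the markers in these changes was not tested. The neutrophil list itself had 2 of 11 members higher and none lower with LPS. Thbs1, thrombospondin-1, an activator of latent TGF-beta, rose from 234, 297 and 293 to 2501, 2708 and 2664 CPM. Chil3 and Lyz2 fell. Chil3, a chitinase-like protein of alternatively activated macrophages, went from 54016, 57099 and 55547 to 33941, 34315 and 34332 CPM, and Lyz2, lysozyme, from 1529, 1556 and 1539.9 to 499, 717 and 662 CPM. In neither did the groups overlap. Retnla, a resistin-like marker of IL-4-type activation, had a log2 change of −1.38 ± 0.49 (edgeR adjusted p = 0.0312), and the call was lost with a replicate block (edgeR adjusted p = 0.0547), in the 6 TolDC samples alone (edgeR adjusted p = 0.134), without TolDC replicate 2 or 3 (log2 change −1.14 each) and without TolDC + LPS replicate 1 or 3 (−1.04 and −1.52).

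Proteases and inhibitors of matrix turnover rose more often than they fell: 12 of 19 rose, 3 fell and 4 were not called, with a median of 0.70. Mmp14 (chr14:54431612-54445364, plus strand), a membrane-bound collagenase that dendritic cells use to move through matrix, rose from 3.49, 2.98 and 3 to 265, 255 and 254 CPM. The nearest samples of the groups were 72.8-fold apart, and the log2 change was 6.35 ± 0.07 (edgeR adjusted p = 4.96e-22). Mmp13, a collagenase, rose from 11.1, 10.9 and 11 to 210.3, 191 and 192 CPM (log2 change 4.17 ± 0.06). The metalloproteinase inhibitor Timp1 rose from 7.61, 7.06 and 6.27 to 278, 225 and 238 CPM, and Serpinb2, an inhibitor of urokinase, from 10.6, 11.6 and 12.9 to 298, 289 and 292 CPM. Mmp9, the gelatinase of neutrophils and dendritic cells, rose from 8.21, 30.2 and 28.2 to 95.7, 159.6 and 139 CPM. Replicate 1 was the lowest of both groups for Mmp9, the groups did not overlap, and the log2 change was 2.56 ± 0.47, or 2.35 without the 4 samples numbered 1. Mmp12, a macrophage elastase, was not called, with a log2 change of 0.14 ± 0.08, but it was called with a replicate block (edgeR adjusted p = 0.000487). Of 20 growth factors and matrix proteins, 7 rose, 11 fell and 2 were not called, with a median of −0.31. Changes of at least 2-fold were even, with 6 rises and 6 falls. Pdgfb, a growth factor for fibroblasts and pericytes, rose from 1.23, 1.51 and 1.73 to 17.7, 16.5 and 17.2 CPM.

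Chemoattractant receptors were split between rises and falls. Of 18 tested, 8 rose, 5 fell and 5 were not called, with a median of 0.44. Ccr2, which brings monocytes and their descendants to inflamed tissue, fell from 46.2, 51.4 and 49.2 to 1.86, 3.16 and 2.65 CPM. Its nearest samples were 14.6-fold apart, with a log2 change of −4.25 ± 0.10. Fpr1 and Fpr2, receptors for bacterial formyl peptides, rose by 4.41 ± 0.43 and 3.93 ± 0.43 on the log2 scale. Fpr1 stood at 4.76, 11.1 and 10.5 CPM without LPS and 129, 229 and 201 CPM with it, again with replicate 1 the lowest of each group. Without the 4 samples numbered 1 the log2 changes were 4.32 and 3.71. Ccr1, a receptor for CCL3 and CCL5, was not called, with a log2 change of 0.01 ± 0.04.

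Receptors and ligands that set the T cell response moved in both directions. The 17 TNF receptors had a median of 0.62, with 10 higher, 3 lower and 4 not called. Tnfrsf1b, TNF receptor 2, rose from 188, 201 and 203 to 1335, 1444 and 1425 CPM, and Tnfrsf9, 4-1BB, by 2.54 ± 0.06 on the log2 scale. Among 23 genes of the B7 family and other T cell co-signalling genes, 14 rose, 5 fell and 4 were not called, with a median of 0.48. Cd40, the receptor for the T cell's CD40 ligand, led the list and went from 1.94, 2.65 and 2.43 to 85.6, 78.4 and 80.3 CPM, with the nearest samples 29.6-fold apart. Cd200, an inhibitory ligand, had a log2 change of 2.39 ± 0.06. Cd80 and Cd86, the CD28 ligands, stayed within 2-fold. Cd80 rose from 89.6, 85.2 and 84 to 125, 118 and 117 CPM, and Cd86 from 15.3, 14.6 and 15.1 to 20.2, 20.3 and 21 CPM. For both, all LPS samples were above all others. The inhibitory receptor Cd200r1 fell from 242, 227 and 243 to 39, 36.3 and 36.6 CPM, and Havcr2, TIM-3, by 1.84 ± 0.05 on the log2 scale. Btla, an inhibitory receptor, was not called (log2 change −0.27 ± 0.12, edgeR adjusted p = 0.0572) but was called lower with a replicate block (edgeR adjusted p = 0.0123). In the broader list of maturation and migration genes, 22 of 25 rose, 2 fell and 1 was not called, with a median of 1.18.

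Receptors for uptake and recognition of ligands fell most among C-type lectins. Of 21 C-type lectin receptors tested, 14 fell, 6 rose and 1 was not called, with a median of −1.96. Mgl2, a galactose-type lectin of dermal and type 2 dendritic cells, fell from 939, 994 and 984 to 83.1, 70.4 and 73.4 CPM. Clec4d, which binds mycobacterial cord factor, rose against the majority, with a log2 change of 3.60 ± 0.12. Clec4a1, an activating lectin, rose from 5.67, 8.12 and 8.49 to 47.3, 68 and 64.8 CPM. Reads that match near-identical relatives were left out of the counts, so levels within the Clec4a and Clec4b group are uncertain.

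Axl and Mertk, receptor tyrosine kinases that bind dying cells, both fell. Axl (chr7:25757273-25788705, minus strand) fell from 931, 858 and 865 to 96.2, 83.5 and 84.3 CPM and Mertk from 60, 54.2 and 54.7 to 9.47, 10.6 and 9.93 CPM. The groups were 8.92-fold and 5.11-fold apart at their nearest samples, with log2 changes of −3.33 ± 0.06 and −2.49 ± 0.08 (edgeR adjusted p = 1.96e-18 and 2.28e-13). All 22 scavenger and dead-cell uptake receptors together had a median of 0.48, with 13 higher, 8 lower and 1 not called. The lipid scavenger receptor Cd36 fell by 1.04 ± 0.10 on the log2 scale. Gpnmb, a lysosomal glycoprotein of lipid-laden macrophages, rose from 2481, 2302 and 2245 to 4703, 4028 and 4205 CPM. Fcrls, a scavenger-type Fc receptor relative, had a log2 change of −3.85 ± 0.10, while 3 of 9 Fc receptors rose, 3 fell and 3 were not called. Of 17 complement genes, 7 rose, 4 fell and 6 were not called. C3, the central complement component, went from 1914, 1854 and 1816 to 4376, 4316 and 4313 CPM.

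Sensors of bacteria and nucleic acids had a median near that of all genes. Of 30 Toll-like receptor genes, co-receptors and adaptors, 14 rose, 10 fell and 6 were not called, with a median of −0.06. Cd14, the co-receptor of LPS, led the list and went from 32.6, 35.9 and 36.6 to 649.9, 685 and 674 CPM. Its nearest samples were 17.8-fold apart. Tlr4, the LPS receptor, fell from 98.1, 94.6 and 97.3 to 47.7, 55.7 and 52 CPM, with all LPS samples below all others and a log2 change of −0.90 ± 0.05. Tlr11, which senses profilin and flagellin, went from 4.76, 4.29 and 3.95 to 0.0326, 0.0336 and 0.0743 CPM, so that the LPS samples lay about the floor that 3 counts set in those libraries, 0.0718 to 0.0987 CPM. Irak3, an inhibitory kinase of the pathway induced in LPS tolerance, rose from 30.1, 29.4 and 29.6 to 139, 186 and 171 CPM. Of 21 inflammasome genes, 10 rose, 8 fell and 3 were not called. Mefv, pyrin, rose by 2.43 ± 0.09 on the log2 scale and Nlrp1b fell by 3.21 ± 0.10.

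The NF-kB pathway had 25 of 27 genes higher and 2 lower with LPS, with a median of 1.15. Traf1, an adaptor of TNF receptors, rose from 9.36, 10.9 and 10.5 to 256, 257 and 256 CPM. The inhibitors of the pathway rose as well: Nfkbia, I-kappaB-alpha, from 176, 180.2 and 179 to 973, 946 and 967 CPM and Tnip1 from 55.3, 56.9 and 57.9 to 337, 357 and 349.5 CPM. None of the 3 genes had overlapping groups, and the log2 changes were 4.64 ± 0.05, 2.43 ± 0.04 and 2.62 ± 0.04. The falls were small, 0.26 ± 0.04 for the kinase Chuk and 0.12 ± 0.04 for Nfkbid, and that of Nfkbid was not called by DESeq2 (adjusted p = 0.0578), nor without TolDC replicate 2 or 3 or TolDC + LPS replicate 1 or 2 (log2 changes −0.11 to −0.10). A kappaB match was present in 8 of the 22 promoters available for the list, or 36.4%, and in 4 of the 8 available for CXC chemokines.

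Egr1 and Myc fell. Egr1, induced within minutes by growth factors, went from 162, 147 and 157 to 12.8, 15.8 and 14.8 CPM (log2 change −3.42 ± 0.07), and Myc, which drives growth, had a log2 change of −1.75 ± 0.07. Over 26 AP-1, EGR, C/EBP and KLF factors, 13 rose, 10 fell and 3 were not called, with a median of 0.22. Among 26 MAP kinase phosphatases, SOCS proteins and RNA decay factors, which end signalling, 17 rose, 5 fell and 4 were not called, with a median of 0.46. Egr1 belongs to 10 genes also known to respond to cell handling and heat, of which 5 rose and 4 fell; their summed level was 1160.2, 1107 and 1103 CPM without LPS and 1880.3, 1727 and 1746 CPM with it, and the part of handling in these changes was not tested. Dusp1, the phosphatase of p38 and JNK, rose by 2.46 ± 0.06 on the log2 scale.

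Most interferon-stimulated genes rose. Of 39 antiviral genes tested, 35 rose, 3 fell and 1 was not called, with a median of 1.27. Isg15 (chr4:156199424-156200818, minus strand), a ubiquitin-like modifier, rose from 9.48, 9.55 and 10.5 to 128, 133 and 132 CPM. Irf7, the transcription factor that amplifies type I interferon, rose from 19.7, 25.6 and 23.9 to 115, 139 and 133 CPM. Their nearest samples were 12.2-fold and 4.49-fold apart, with log2 changes of 3.73 ± 0.07 and 2.49 ± 0.23. The falls were in Samhd1, Mx1 and Ifitm3. Samhd1, a dNTPase that restricts viruses, went from 2098, 2009 and 1966 to 872, 852 and 835 CPM. Mx1, a GTPase, went from 198, 191 and 185 to 91.2, 79.5 and 82.3 CPM, and Ifitm3 fell by 0.24 ± 0.06 on the log2 scale. Among 26 interferon and IL-10 receptors, JAK, STAT and IRF factors, 18 rose, 6 fell and 2 were not called. Il10ra, the signalling chain of the IL-10 receptor, rose by 1.50 ± 0.04 on the log2 scale, and Ifngr1, a chain of the interferon-gamma receptor, fell by 1.69 ± 0.06.

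The interferon-induced GTPases, which attack vacuoles of intracellular microbes, were divided, with 7 of 17 rising, 5 falling, 5 not called and a median of 0.13. Gbp5 rose from 81.9, 81.4 and 77.8 to 363, 345 and 353 CPM and Gbp2 from 528, 510.3 and 495 to 1237, 1199.8 and 1206 CPM. Iigp1 fell from 42.9, 41.2 and 37.8 to 11.4, 12.2 and 12.2 CPM and Tgtp1 from 11.7, 12.2 and 12.2 to 3.33, 6.83 and 6.42 CPM. In none of the 4 did the groups overlap. Log2 changes were 2.14 ± 0.04, 1.25 ± 0.04, −1.76 ± 0.09 and −1.11 ± 0.30. These families have near-identical members, so the levels of single members are uncertain. Promoters of Isg15, Gbp5 and Tgtp1 are shown because the genes moved in different directions while all 3 hold the core of the interferon response element, a pair of GAAA repeats with any 2 bases between them, searched on both strands. Capitals mark the match. The sequences span chr4:156200819-156201068 (minus strand), chr3:142496684-142496933 (plus strand) and chr11:48992247-48992496 (minus strand), each written in the direction of its gene.
Isg15: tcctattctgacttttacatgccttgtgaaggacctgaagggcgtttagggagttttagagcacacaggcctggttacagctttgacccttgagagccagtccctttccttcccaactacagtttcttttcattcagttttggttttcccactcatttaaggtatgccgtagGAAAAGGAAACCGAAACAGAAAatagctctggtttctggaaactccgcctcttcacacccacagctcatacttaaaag
Gbp5: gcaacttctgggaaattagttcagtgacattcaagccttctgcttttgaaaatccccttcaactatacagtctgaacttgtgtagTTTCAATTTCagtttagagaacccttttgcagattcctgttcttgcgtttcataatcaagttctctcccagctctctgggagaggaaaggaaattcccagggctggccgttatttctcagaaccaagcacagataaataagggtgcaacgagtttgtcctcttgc
Tgtp1: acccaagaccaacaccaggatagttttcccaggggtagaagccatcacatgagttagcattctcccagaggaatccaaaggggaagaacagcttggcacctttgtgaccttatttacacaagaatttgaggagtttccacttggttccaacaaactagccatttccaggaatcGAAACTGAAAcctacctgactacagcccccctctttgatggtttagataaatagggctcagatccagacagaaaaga
Isg15 had 3 overlapping matches, and Gbp5 and Tgtp1 had 1 each, on the minus strand of the printed sequence in Gbp5. The core was present in 10 of 11 GTPase promoters (90.9%) and in 13 of 31 antiviral gene promoters (41.9%), against 2.94% of the promoters of tested genes and 3.04% of all.

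Most genes of antigen presentation by MHC class I rose. Of 22 MHC class I and immunoproteasome genes, 15 rose, 3 fell and 4 were not called, with a median of 0.49, and B2m, the light chain of class I, rose by 0.60 ± 0.04 on the log2 scale. The class I heavy chain H2-Q6 went from 145, 159 and 154 to 726, 743 and 743 CPM without overlap. The log2 changes of H2-Q6, H2-Q7 and H2-Q4 were 2.27 ± 0.06, 2.02 ± 0.06 and 1.91 ± 0.05, though these near-identical genes are uncertain. Of 14 MHC class II genes, 5 rose, 4 fell and 5 were not called, with a median of −0.06. H2-Eb1, a class II beta chain, rose from 654, 601 and 607 to 1380.2, 1146 and 1203 CPM, and Cd74, the invariant chain, by 0.69 ± 0.06 on the log2 scale. The peptide-loading chaperone subunit H2-DMa fell by 1.18 ± 0.05 and Ctss, the protease that removes the invariant chain, by 0.76 ± 0.04.

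The 26 transcription factors of myeloid identity had a median of −0.15: 14 fell, 10 rose and 2 were not called. Relb, the NF-kB subunit required by mature dendritic cells, rose by 2.36 ± 0.06 on the log2 scale. Irf4, a factor of type 2 conventional dendritic cells, fell by 0.38 ± 0.07, and Zbtb46, which marks classical dendritic cells, was not called (log2 change −0.03 ± 0.10).

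Vitamin D and retinoid genes were followed because vitamin D3 was used to make these cells. Of 17 tested, 8 rose, 5 fell and 4 were not called, with a median of 0.33. Vdr, the receptor, fell from 546, 502 and 501 to 284, 238 and 248 CPM. Cyp24a1, the enzyme that inactivates vitamin D and a direct target of the receptor, went from 1819.9, 1708 and 1743 to 626, 533 and 559 CPM. The groups of both genes did not overlap, yet Cyp24a1 was not called (log2 change −1.62 ± 0.67, edgeR adjusted p = 0.0692). The spread of the test is shared with the BMDC samples, which ranged from 0 to 13.1 CPM for this gene. In a fit of only the 6 TolDC samples the same change had an adjusted p of 5.07e-12, and with a replicate block 0.0411. Aldh1a2 (chr9:71215789-71296243, plus strand), the enzyme with which dendritic cells make retinoic acid, rose from 1.63, 2.41 and 1.9 to 23.7, 23.3 and 23 CPM. Cyp26b1, which degrades retinoic acid, rose with it, from 3.53, 5.06 and 3.81 to 54.4, 46.4 and 48.8 CPM. The nearest samples were 9.54-fold and 9.17-fold apart, with log2 changes of 3.56 ± 0.08 and 3.60 ± 0.11. Pparg, the fatty acid receptor of alternatively activated cells, fell from 44.2, 45.4 and 43.3 to 8.94, 9.25 and 9.44 CPM.

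The inducible enzymes of prostaglandin synthesis rose. Ptgs2, cyclooxygenase-2, rose from 42, 37.5 and 38.6 to 1206, 998 and 1122 CPM, and Ptges, the synthase of prostaglandin E2, from 5.79, 7.22 and 7.19 to 239, 221 and 225 CPM. Their groups were 23.8-fold and 30.6-fold apart at the nearest samples. The log2 changes were 4.82 ± 0.09 and 5.08 ± 0.11 (edgeR adjusted p = 1.79e-14 and 1.41e-13). Ptgs1, the constitutive cyclooxygenase, had a log2 change of −2.01 ± 0.04, and Cysltr1, a leukotriene receptor, fell from 16, 15.6 and 16.2 to 1.27, 1.45 and 1.49 CPM. Over the list of 23, 9 rose, 9 fell and 5 were not called.

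Amino acid and itaconate enzymes all passed the test, with 10 of 14 rising and 4 falling and a median of 0.49. Acod1 (chr14:103046977-103056573, plus strand), which makes itaconate from a TCA cycle intermediate, rose from 76.8, 69.7 and 70.5 to 3042, 2837 and 2874 CPM. Nos2, the inducible nitric oxide synthase, rose from 212, 186 and 193 to 2787, 2343 and 2438 CPM. Arg1, arginase, which competes for the same substrate, fell from 7178, 6757 and 6816 to 1750.4, 1529 and 1588 CPM. The 2 groups of each gene were clear of each other, and the log2 changes were 5.33 ± 0.05, 3.68 ± 0.09 and −2.09 ± 0.05. Arg2, the mitochondrial arginase, rose by 3.26 ± 0.27 and Slc7a2, an arginine transporter, by 2.62 ± 0.07. Kmo, an enzyme of tryptophan breakdown, fell from 15.6, 16.6 and 15 to 1.83, 1.51 and 1.19 CPM.

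Iron handling genes had a median of 1.99, with 12 of 17 rising, 4 falling and 1 not called. Cp (chr3:19957054-20009145, plus strand), ceruloplasmin, a ferroxidase that helps iron leave cells, rose from 0.476, 0.612 and 0.634 to 56.2, 57.6 and 57.7 CPM. Fth1, the ferritin heavy chain, which stores iron, rose from 4889, 4584 and 4639 to 28666, 25652 and 26961 CPM. The lowest LPS sample was 88.6 times the highest of the others for Cp and 5.25 times for Fth1. Log2 changes were 6.62 ± 0.08 and 2.53 ± 0.04 (edgeR adjusted p = 4.96e-22 and 4.18e-19). Hfe, which regulates hepcidin and iron uptake, fell by 2.11 ± 0.05 on the log2 scale, and the endosomal ferrireductase Steap3 by 2.25 ± 0.10.

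Genes that protect cells from oxidants mostly rose: 23 of 28 oxidative stress and NRF2 genes rose, 2 fell and 3 were not called, with a median of 0.94. Sod2, the mitochondrial superoxide dismutase, rose from 98.4, 98.1 and 96.8 to 1004, 1136 and 1116 CPM. Mt2, a metallothionein, rose by 4.43 ± 0.22 and Prdx1, a peroxidase, by 1.90 ± 0.05 on the log2 scale. Of 26 glycolysis and hypoxia genes, 19 rose, 6 fell and 1 was not called, with a median of 0.40. Pfkfb3, whose product activates phosphofructokinase, rose from 37, 36.8 and 37.2 to 175, 176 and 174 CPM, with the samples of each group close together.

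Genes of mitochondrial oxidation fell. None of 33 TCA cycle and fatty acid oxidation genes rose, 30 fell and 3 were not called, with a median of −0.46. Idh1, the cytosolic isocitrate dehydrogenase, fell from 567, 536 and 539 to 243, 231 and 231 CPM, and its mitochondrial relatives Idh2 and Idh3a by 1.52 ± 0.05 and 1.33 ± 0.04 on the log2 scale. Of 41 nuclear genes of the respiratory chain, 30 fell, 3 rose (1 without TolDC replicate 1 or 3) and 8 were not called, with a median of −0.20 and no change of 2-fold or more. Ndufs8, a complex I subunit, fell by 0.71 ± 0.05. Of 13 mitochondrially encoded genes listed, 8 had enough reads to be tested. Of these 8, 4 were higher, 2 lower and 2 not called. The rest had almost no counts, such as mt-Co2 with 3 in the TolDC samples together and 8 with LPS. The counts thus leave out part of the mitochondrial genome, and the reason was not tested. The fall of mt-Nd6, the complex I gene on the light strand, with a log2 change of −1.29 ± 0.23, was not found when reads were counted without regard to strand (0.08, edgeR adjusted p = 0.246). Of 32 cytosolic ribosomal proteins, 30 fell and none rose, with a median of −0.26, and Rpl3 went from 731, 752 and 724 to 413, 399 and 394 CPM.

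Lipid genes were mixed. Of 20 cholesterol efflux and lipid-handling genes, 10 rose, 7 fell and 3 were not called, with a median of 0.41. Abca1, the cholesterol exporter, rose from 0.873, 0.694 and 0.705 to 15.4, 18.4 and 18.5 CPM. Its samples without LPS were all under 1 CPM, and the log2 change was 4.52 ± 0.15 (edgeR adjusted p = 1.23e-14). Nr1h3, the oxysterol receptor LXR-alpha that activates Abca1, rose by 1.87 ± 0.11 on the log2 scale. Lpl, which releases fatty acids from lipoproteins, fell from 2179, 2075 and 2128 to 638, 540.1 and 565 CPM. Of 30 cholesterol and fatty acid synthesis genes, 7 were higher, 13 lower and 10 not called.

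Cell division genes fell together. All 32 mitosis and cytokinesis genes fell, 30 of them at least 2-fold, with a median of −2.85, and 30 of 32 DNA replication and G1/S genes fell without a rise, with a median of −1.86. Kif23, a kinesin of the dividing cell's midbody, fell from 24, 22.4 and 23 to 1.24, 1.68 and 2.01 CPM. Rrm2, which supplies nucleotides for DNA synthesis, fell from 45.5, 46.7 and 46.7 to 4.37, 5.75 and 5.43 CPM, and Ccnd1, the cyclin of G1 entry, from 72.7, 70.9 and 68.5 to 6.69, 5.28 and 6.24 CPM. Their nearest samples were 11.1-fold, 7.91-fold and 10.2-fold apart, with log2 changes of −3.79 ± 0.12, −3.15 ± 0.18 and −3.54 ± 0.09. Mki67, which encodes the proliferation antigen Ki-67, fell from 83.4, 81.4 and 76.7 to 44.2, 58.3 and 49.2 CPM (log2 change −0.67 ± 0.09). Its promoter is shown because it holds 3 CCAAT boxes, marked in capitals, the element bound by NF-Y in many promoters of dividing cells, searched on both strands as CCAAT. It spans chr7:135716380-135716629, minus strand.
Mki67: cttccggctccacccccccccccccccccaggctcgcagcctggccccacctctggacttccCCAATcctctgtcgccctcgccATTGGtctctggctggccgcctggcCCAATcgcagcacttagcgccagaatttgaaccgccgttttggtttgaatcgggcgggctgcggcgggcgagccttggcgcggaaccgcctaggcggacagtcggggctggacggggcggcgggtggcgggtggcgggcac
The box was present in 21 of 26 mitosis promoters (80.8%) and in 15 of 24 replication promoters (62.5%), against 36.7% of those of tested genes. The motif TTTGAA, part of the cell cycle homology region, was present in 10 of 26 mitosis promoters (38.5%) against 11.2%, also on both strands. Of 19 cell cycle inhibitors and p53 targets, 11 rose, 7 fell and 1 was not called. Gadd45b rose from 18.8, 21.5 and 22.2 to 227, 215 and 219.7 CPM and Cdkn2b, a CDK4 and CDK6 inhibitor, by 2.58 ± 0.09 on the log2 scale.

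Genes of cell death and of the endoplasmic reticulum gave smaller changes. Of 23 BCL2 family, caspase and death receptor genes, 12 rose, 9 fell and 2 were not called, with a median of 0.15. The survival factor Bcl2 had a log2 change of −2.01 ± 0.11, the death receptor Fas of 2.00 ± 0.08 and Cflar, an inhibitor of caspase-8, of 1.78 ± 0.06. Among 24 ER stress genes, 14 fell and 9 rose, with a median of −0.38, although Ddit3, the stress factor CHOP, rose from 23.8, 22.2 and 24.5 to 69.9, 64.1 and 65.6 CPM. For 33 lysosome, cathepsin and V-ATPase genes the median was 0.17, with 18 higher, 13 lower and 2 not called. Psap, the precursor of saposins, which help digest sphingolipids, rose from 17921, 17386 and 17702 to 25781, 22185 and 22814 CPM, and Npc2, a lysosomal cholesterol carrier, by 1.12 ± 0.04 on the log2 scale.

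Among long non-coding RNAs and microRNA host genes, 4 of 9 rose, 2 fell (1 in a fit of the 6 TolDC samples alone) and 3 were not called. Mir155hg, the host of miR-155, rose from 3.05, 3.02 and 3.81 to 53.5, 44.6 and 49.4 CPM, with the nearest samples 11.7-fold apart (log2 change 3.89 ± 0.10). The mature RNA itself was not measured by these libraries. Its RefSeq sequence is shown because the host gene was among the rises of the list, with the seed, bases 2 to 8, in capitals, encoded at chr16:84714143-84714165 on the plus strand.
mmu-miR-155-5p: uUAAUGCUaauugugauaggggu

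Several other named genes belong to none of the lists. Vnn3, a pantetheinase, rose from 0.992, 0.939 and 0.881 to 112, 103 and 104 CPM, and Flrt3, a cell adhesion protein, from 0.952, 0.49 and 1.06 to 44.5, 41.4 and 39.7 CPM. The samples without LPS were all far below those with it. Fbp1 (chr13:62864753-62888282, minus strand), an enzyme of gluconeogenesis, fell from 105, 104 and 99.8 to 5.03, 4.07 and 4.61 CPM. Flt1, the VEGF receptor 1, fell from 313, 274 and 279 to 14.5, 11.9 and 14 CPM and Ramp1, part of the receptor for the neuropeptide CGRP, from 85.9, 91.2 and 91.7 to 6.01, 5.95 and 5.5 CPM. The nearest samples of these 3 genes were 19.8-fold, 18.9-fold and 14.3-fold apart, and the log2 changes were −4.49 ± 0.07, −4.42 ± 0.10 and −3.95 ± 0.07 (edgeR adjusted p = 3.07e-19, 2.48e-12 and 6.66e-19). Notch4, a receptor of the Notch family, fell from 31.8, 30.6 and 30.3 to 2.35, 2.76 and 2.23 CPM.

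Whether the TolDC response differed from that of BMDC was tested gene by gene as the difference of the log2 changes, TolDC minus BMDC, over all 12 libraries; the responses share no control samples. edgeR called this difference more positive in TolDC for 2683 genes (20.4%) and more negative for 3151 (24.0%). Most genes nevertheless moved the same way: 3531 rose and 3501 fell in both. Of the 508 genes that rose at least 4-fold in TolDC, 449 also rose in BMDC, 6 fell and 53 were not called, and of the 529 that fell as far, 474 also fell, 7 rose and 48 were not called. The median absolute log2 change was 0.40 in TolDC and 0.45 in BMDC.

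**Figure D3:**
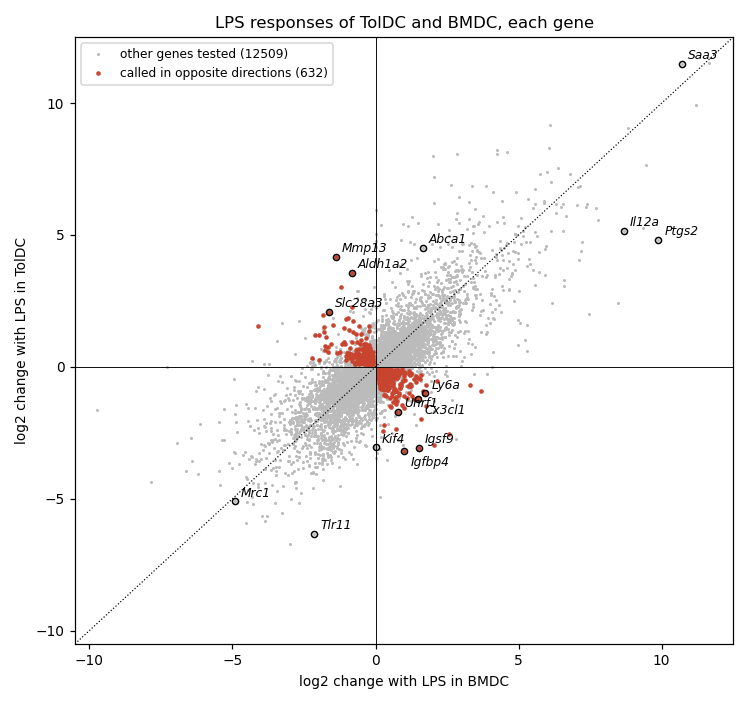
Log2 change with LPS in TolDC (vertical axis) against that in BMDC (horizontal axis) for all 13141 genes; red points were called in opposite directions and the dotted line marks equal change. Most points lie along the line, and the 632 red points fill the 2 quadrants of opposite sign.

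By list, interferon genes rose less in TolDC. For antiviral genes the difference was more negative in 27 of 39 and more positive in none, with medians of 1.27 in TolDC and 1.91 in BMDC, and for the GTPases it was more negative in 15 of 17. Mean Irf7 rose from 8.95 to 255 CPM in BMDC, and the difference of the log2 changes was −2.35 ± 0.35 (edgeR adjusted p = 0.000707). Mx1 and Tgtp1 changed by 0.04 ± 0.05 and 1.26 ± 0.27 in BMDC, with differences of −1.22 ± 0.08 and −2.37 ± 0.40. Co-signalling genes were more positive in 4 of 23 and more negative in 13, including Cd80 (−1.15 ± 0.06), Cd86 (−1.43 ± 0.07) and Btla (−3.72 ± 0.31). The difference for Btla lay mostly in a rise in BMDC, from a mean of 0.814 to 8.31 CPM. In TolDC its mean went from 69.3 to 57.3 CPM and was not called, so it stayed higher there with LPS. Il12a rose by 8.67 ± 0.22 in BMDC, a difference of −3.52 ± 0.47 (edgeR adjusted p = 2.46e-05). Ptgs2 went from a mean of 0.633 to 591 CPM in BMDC, with a difference of −5.07 ± 0.19. Its TolDC levels, given above, were higher than these BMDC means both without and with LPS. For Il1b and Nos2 the differences were −1.35 ± 0.06 and −1.84 ± 0.12, and for Ccl22 −1.27 ± 0.07.

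Cell division genes fell further in TolDC, with the difference more negative in 27 of 32 mitosis genes and 26 of 32 replication genes. Most of them fell in BMDC too. There 31 of 32 mitosis genes fell and 0 rose, with a median of −1.57. Of 32 replication genes, 27 fell and 4 rose in BMDC, with a median of −0.81. Kif4, a mitotic kinesin outside these lists, was named for its large difference. It stood at 15 and 15 CPM in BMDC without and with LPS. In TolDC it fell from 10.1, 10.2 and 8.95 to 0.881, 1.01 and 1.54 CPM (difference −3.06 ± 0.19). Other lists were more positive in TolDC. The lysosome list was more positive in 28 of 33 and more negative in 1, the respiratory chain list in 24 and 3 of 41, the ER stress list in 16 and 2 of 24, the efflux and lipid-handling list in 14 and 3 of 20, the matrix protease list in 12 and 4 of 19, the iron list in 10 and 3 of 17 and the acute-phase list in 9 and 3 of 24. Among their members, Abca1 differed by 2.86 ± 0.20, Cp by 1.70 ± 0.13, Thbs1 by 2.09 ± 0.10 and Lcn2 by 2.35 ± 0.75 (edgeR adjusted p = 3.06e-09, 4.49e-09, 1.74e-09 and 0.0327). For Abca1 and Cp these larger log2 rises started from lower levels and ended lower. Mean Abca1 went from 0.757 to 17.4 CPM in TolDC and from 12.1 to 38.2 CPM in BMDC. Mean Cp went from 0.574 to 57.2 CPM in TolDC and from 7.47 to 226 CPM in BMDC. Ptges and Traf1 also rose more in TolDC, with differences of 1.67 ± 0.18 and 1.58 ± 0.06. Axl fell further in TolDC, with a difference of −1.74 ± 0.08. The list of 27 NF-kB genes was split evenly, with 8 more positive, 8 more negative and 11 not called.

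**Figure D4:**
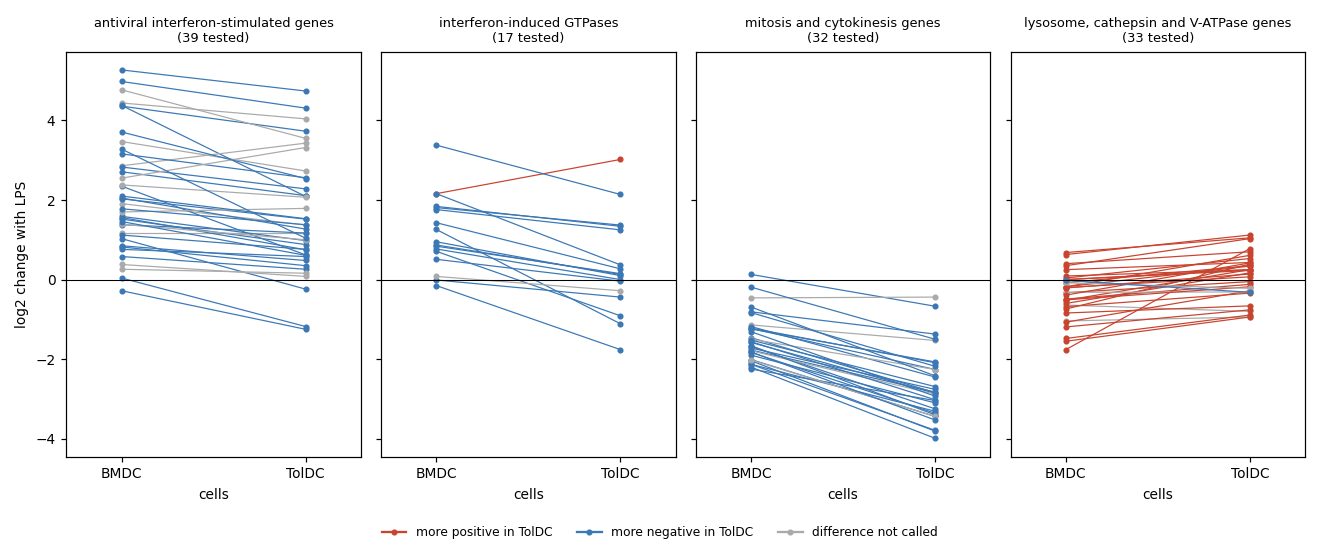
Log2 change with LPS of each tested member of 4 lists, in BMDC (left of each panel) and TolDC (right); 1 line is 1 gene, red where the difference was called more positive in TolDC, blue where more negative and grey where not called. The lines fall in 27 of 32 mitosis genes and 27 of 39 antiviral genes, and rise in 28 of 33 lysosome genes, with the difference called.

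Genes called in opposite directions in the 2 cell types numbered 632, or 4.81% of those tested: 269 rose in TolDC and fell in BMDC, and 363 did the reverse. Mmp13 fell in BMDC from a mean of 28.9 to 11 CPM while it rose in TolDC, a difference of 5.56 ± 0.09 (edgeR adjusted p = 2.16e-18). Aldh1a2 fell in BMDC from 248 to 139 CPM, a difference of 4.39 ± 0.10. Even with LPS, every TolDC sample had less Aldh1a2 than every BMDC sample. Slc28a3, a nucleoside transporter, rose from 3.65, 3.14 and 4.09 to 11.4, 18.4 and 16.6 CPM in TolDC and went from a mean of 73.7 to 23.8 CPM in BMDC. The reverse held for Igsf9, an immunoglobulin superfamily adhesion protein, which fell from 73.3, 67.1 and 67.6 to 8.36, 8.14 and 8.03 CPM in TolDC and rose from 30.7 to 87.5 CPM in BMDC (difference −4.59 ± 0.08). Igfbp4, a binding protein of insulin-like growth factors, fell from 51.8, 52.1 and 53 to 5.35, 5.99 and 5.9 CPM and rose from 6.95 to 13.9 CPM. Uhrf1, which maintains DNA methylation at replication, fell from 31.1, 30.5 and 27.1 to 8.03, 9.82 and 9.19 CPM and rose from 22.1 to 38.2 CPM. In each of these genes the TolDC samples with and without LPS did not overlap.

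**Figure D5:**
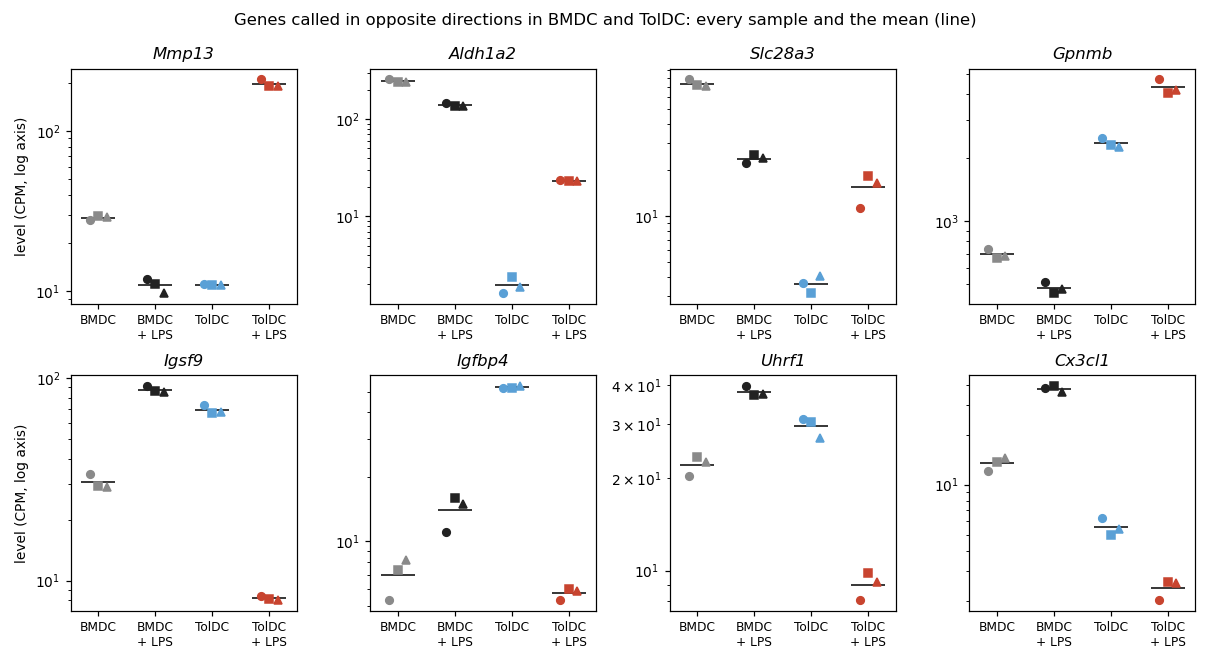
CPM in all 12 libraries, on a log10 axis, for 8 genes called in opposite directions; marker shape gives the replicate (circle 1, square 2, triangle 3) and the line the group mean. Mmp13, Aldh1a2, Slc28a3 and Gpnmb rise with LPS in TolDC and fall in BMDC, and Igsf9, Igfbp4, Uhrf1 and Cx3cl1 do the reverse.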

How the data were processed

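The authors deposited 1 table of read counts per gene and library, made with STAR after cutadapt on mm10 (GRCm38), per the submitters' processing notes, which also list edgeR and limma and give no versions. The column of stranded counts was used, and reads matching several places or no gene were not counted (79.7% to 80.6% of the reads of the TolDC libraries were assigned). In R 4.3.3, edgeR 4.0.16 kept 13141 genes (filterByExpr), scaled libraries by TMM (factors 0.945 to 1.04), and fitted 1 mean per group over all 12 libraries with the quasi-likelihood test and Benjamini-Hochberg adjustment; the biological coefficient of variation was 0.0572. SE is the absolute log2 change divided by the square root of F. Deviations from the group means of TolDC and TolDC + LPS samples with the same number correlated at 0.38, 0.204 and 0.131, so the numbers may pair the samples. The main fit had no replicate block, so the SE and p-values given leave this pairing out unless a block is named. A fit with a replicate block was run as an alternative, as were DESeq2 1.42.0 and the other settings of the closing section.

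Genes were named by rule: the 20 largest rises and 20 largest falls without overlap of the samples and at least 5 CPM in the higher group, leading and opposing members of each list, the largest differences from BMDC, and genes fixed by name. The text leaves out some of the genes that the rule selects, among them some of the largest rises and falls. The members and lists were chosen with earlier results of these data known. Promoters and microRNAs are from RefSeq tables of GRCm38.p6, at the first listed start of a gene. A floor of 3 counts was 0.0718 to 0.127 CPM in the TolDC libraries, and floors cover counting error only.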

Additional observations from a re-analysis of the deposited data

Results flagged for a closer look

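Among the genes named by rule, 28 rose with LPS in one cell type and fell in the other, with the difference of the log2 changes, TolDC minus BMDC, called by edgeR. 13 of them rose in TolDC and fell in BMDC, with differences of Gpnmb 1.41, Fcgr1 1.78, Fcgr3 0.41, Aldh1a2 4.39, Pla2g7 0.84, Ndufa2 0.45, mt-Cytb 0.52, Mvd 0.93, Psap 0.80, Ctsb 0.77, Mmp13 5.56, Slc28a3 3.72 and Adgrl2 2.87. The other 15 fell in TolDC and rose in BMDC, with differences of Cx3cl1 −2.71, Pdgfa −1.54, Lilrb4a −0.46, Socs2 −0.86, Nfkbid −0.86, Ifitm3 −1.27, Tgtp1 −2.37, Irf4 −0.61, Uhrf1 −2.50, Ccnd2 −1.79, Btg2 −1.27, Neat1 −0.82, Igsf9 −4.59, Igfbp4 −4.18 and Ly6a −2.75. Those described for the first time here are Pdgfa, a growth factor for mesenchymal cells, Lilrb4a, an inhibitory receptor, Socs2, a feedback inhibitor, Fcgr3 and Fcgr1, receptors for IgG, Pla2g7, a phospholipase, Mvd, of cholesterol synthesis, Ccnd2, a cyclin of G1, Btg2, which restrains division, and Ctsb, a lysosomal protease. The fall of Nfkbid in TolDC was small and its call was lost with DESeq2 (adjusted p = 0.0578). Levels of Tgtp1 are uncertain because it has a near-identical neighbour.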

How the results depend on the processing

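The alternatives were other size factors (RLE), DESeq2, no filter on low counts, counts without regard to strand, a replicate block, only the 6 TolDC samples, each TolDC library left out in turn, and all 4 samples numbered 1 left out. The counts of called genes stayed within 1.5 times of the reported ones under each alternative that could give them (the 6 TolDC samples alone give none against BMDC): 4416 to 4841 higher and 4446 to 4935 lower with LPS in TolDC, 2403 to 3043 more positive and 2793 to 3500 more negative than in BMDC, and 506 to 745 in opposite directions. With the samples paired (replicate block), 4841 genes were called higher and 4935 lower, and without the 4 samples numbered 1, 4739 and 4814.

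Of 385 results for named genes, 23 changed call under at least 1 alternative. The replicate block gained Cyp24a1, Mmp12, Btla, Tnfsf12, Slc29a3, Tiparp, mt-Nd1 and Acly, lost Retnla and changed no other of these calls. The log2 change of mt-Nd6 reversed from −1.29 to 0.08 with counts without regard to strand (edgeR adjusted p = 0.246), and the cause was not tested. Of 100 list counts, 8 moved by over 1.5 times. Besides those given above, adenosine and ATP genes that rose went from 6 to 10 without the samples numbered 1, and falls in the list of NR4A, PPAR and related receptors from 3 to 5 with the replicate block. The difference for Iglon5, 3.96, was not called without the samples numbered 1 (3.11).

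With 3 samples a group, changes of genes with few reads are the least certain, and the dose and time of LPS are not known from the sources used here.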

Other observations

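The following lists had no place above. Integrins and adhesion molecules rose and fell equally often with LPS in TolDC, with 11 of 26 rising, 11 falling and 4 not called. All genes tested also split almost evenly, with 35.4% higher and 35.9% lower. Itgae, the integrin alpha chain CD103, fell from 12.9, 8.82 and 10.7 to 1.76, 2.22 and 2.16 CPM. Of 21 genes of extracellular ATP and adenosine, 6 rose, 8 fell and 7 were not called. The microglial and dendritic cell ADP receptors P2ry12 and P2ry13 fell by 2.28 ± 0.14 and 2.01 ± 0.08 on the log2 scale, and Adora2a, an adenosine receptor that limits inflammation, went from 1.78, 2.73 and 2.92 to 50.1, 54.2 and 55 CPM, with the nearest samples 17.2-fold apart. Adora2b, another adenosine receptor, rose by 2.36 ± 0.16.

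Among 22 enzymes of DNA and histone methylation, 12 rose, 6 fell and 4 were not called. The H3K27 demethylase Kdm6b rose from 22.2, 21 and 23.9 to 58.9, 54.6 and 57.3 CPM, and Kdm4a, an H3K9 demethylase, from 98.9, 96.6 and 89.4 to 262, 241 and 248 CPM. In neither did the groups overlap. Of 13 NR4A, PPAR, glucocorticoid and aryl hydrocarbon receptor genes, 8 rose, 3 fell and 2 were not called. Fkbp5, a target of the glucocorticoid receptor, fell from 55.6, 53 and 55.5 to 21.4, 20.8 and 21.5 CPM.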
